A study of Mus musculus with 6 samples.

Results

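S100 proteins and annexins are families of calcium-responsive proteins that bind each other and cell membranes, and their transcripts were measured in tuft cells sorted from the mouse ileum. The members were chosen by gene symbol, as every gene of the table named S100a followed by a number, S100b, S100g, S100z or Anxa followed by a number. This gave 29 of 23420 genes, of which 17 were S100 genes and 12 were annexin genes. The 6 libraries are replicates of 1 group. Their source was young adult C57BL/6J mice of the genotype Gfi1b-eGFP/+, for which the labels name no treatment. These mice express green fluorescent protein from 1 allele of Gfi1b, a transcription factor gene that marks tuft cells within the epithelium and is also active in blood cells, and sorting kept live cells with GFP and EpCam and without CD45. Whether animals were pooled within a library was not given in the sources used here, so the spread between libraries may be partly technical.

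S100 proteins are small proteins that usually act as dimers. Each subunit holds a pair of EF-hand loops, and binding of calcium to these loops exposes a surface that grips a partner protein. Annexins carry a repeated core domain that attaches to acidic phospholipids when calcium rises, which links vesicles, the plasma membrane and the actin cortex. The families meet where an S100 dimer holds the tails of annexin molecules, as S100A10 does with annexin A2, S100A11 with annexin A1 and S100A6 with annexin A11. In epithelia these proteins are known from vesicle traffic at the apical surface, membrane repair and calcium handling, and tuft cells have a dense apical tuft of microvilli and use a calcium-gated channel in chemosensory signalling.

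Expression was deposited as TPM, a share of transcripts that allows for their length and totals 1000000 in every library. Read numbers are not kept in this unit, so the depth is unknown and a value of 0 has no known limit of detection. Between 13044 and 13308 genes per library were listed above 0, and the ribosomal RNA precursor Rn45s together with Gm20594 took 24.6% to 37.8% of the TPM, most in replicates 5 and 6. Tuft cell markers were abundant, with 13 of 13 listed genes above 0 in every library, among them Trpm5 at 1141 ± 211 TPM and Dclk1 at 628.3 ± 130 TPM (SD, n = 6). Markers of neighbouring epithelial cells were also abundant. The summed TPM ran from 3504 to 5920 for 13 tuft cell genes, from 8029 to 16765 for 12 enterocyte genes, from 4089 to 26976 for 7 Paneth cell genes and from 1053 to 5118 for 7 goblet cell genes. The most abundant of these were Fabp1, a fatty acid carrier of enterocytes, at 7410 ± 3269 TPM, the Paneth cell defensin Defa24 at 5147 TPM and the goblet cell gene Zg16 at 848.3 TPM on average. Ptprc, the gene of CD45, averaged 112.3 TPM although the sort excluded cells with that protein. Which cells gave the Ptprc transcripts was not tested. How much each kind of cell gave of a member's transcripts was not tested. In bulk RNA of this kind, fewer cells of a type and less RNA per cell cannot be told apart.

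All 29 members were found in GENCODE M21 on GRCm38, the assembly that mm10 names, although the authors' own gene models were not used here. Of the 17 S100 genes, 14 lie on chromosome 3 in 2 blocks. The first block holds 12 genes within 185 kb, from S100a1 at chr3:90511034-90514392 to S100a9 at chr3:90692632-90695721. The second holds S100a11 (chr3:93520488-93526287, plus strand) and S100a10 (chr3:93555080-93564643, plus strand), 2.82 Mb further on, beyond the fused-type S100 genes of the epidermal differentiation complex. The remaining 3, S100b, S100z and S100g, lie on chromosomes 10, 13 and X. The annexin genes are dispersed over 9 chromosomes.

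Levels followed this map unevenly. In the first block S100a1 was abundant, S100a13, S100a16 and S100a6 were of middle level, S100a14 and S100a4 were low, and the 6 genes S100a2, S100a3, S100a5, S100a7a, S100a8 and S100a9 were listed at 0 in every library. Both genes of the second block were abundant. The fused-type genes between the blocks were nearly silent, with 5 of the 6 in the table listed at 0 in every library and Tchh, which encodes trichohyalin, at 0.96 to 2.75 TPM.

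**Figure D1:**
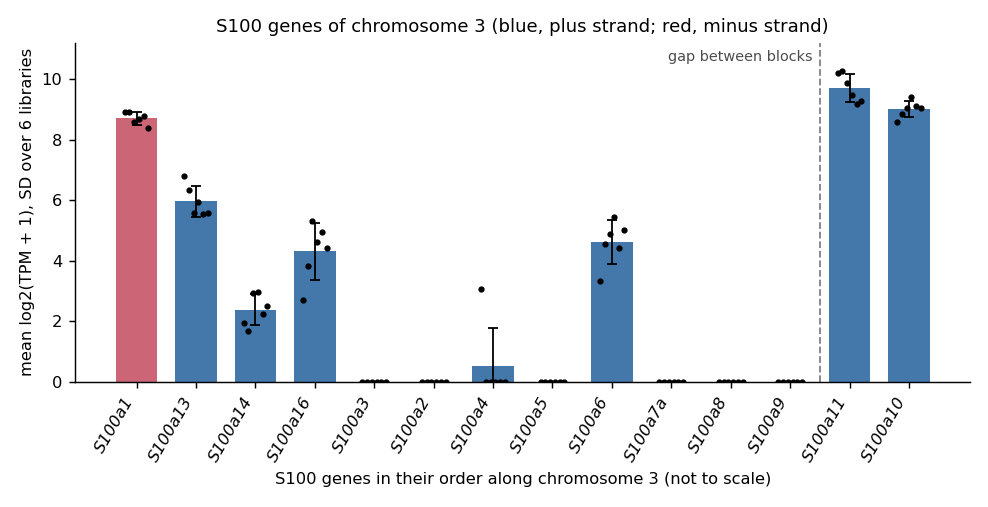
Levels of the 14 S100 genes of chromosome 3 in their order along it (x axis, not to scale) on the log2(TPM + 1) scale (y axis), with bars for the mean, error bars for the SD over 6 libraries and points for single libraries. S100a1, S100a11 and S100a10 are the tallest, and 6 genes lie at 0 in all libraries.

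S100a1 and S100a13 stand head to head on opposite strands, with 42 bases between their annotated starts, and both were present in all libraries. The stretch between them is shown because it separates the starts of both genes, read on the plus strand of GRCm38 at chr3:90514393-90514434, with CpG dinucleotides in capitals. Below it are the 100 bases before the annotated starts of 4 of the 6 most abundant members and of 2 members listed at 0, each 5′ to 3′ on the strand of its gene. The sequences are from RefSeq (GRCm38.p6), at chr3:93520388-93520487 (plus) for S100a11, chr9:69453520-69453619 (plus) for Anxa2, chr6:86793585-86793684 (minus) for Anxa4, chr3:36475895-36475994 (minus) for Anxa5, chr3:90608422-90608521 (plus) for S100a5 and chr3:90695722-90695821 (minus) for S100a9.
S100a1-S100a13: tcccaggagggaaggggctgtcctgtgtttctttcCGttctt
S100a11: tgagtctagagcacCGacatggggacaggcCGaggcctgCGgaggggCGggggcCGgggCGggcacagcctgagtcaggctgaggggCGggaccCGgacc
Anxa2: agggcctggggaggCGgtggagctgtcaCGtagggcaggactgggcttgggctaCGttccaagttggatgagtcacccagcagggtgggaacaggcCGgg
Anxa4: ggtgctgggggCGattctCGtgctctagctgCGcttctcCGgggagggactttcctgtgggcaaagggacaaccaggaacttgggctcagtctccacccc
Anxa5: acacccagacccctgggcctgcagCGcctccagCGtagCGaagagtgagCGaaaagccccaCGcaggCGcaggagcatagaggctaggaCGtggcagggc
S100a5: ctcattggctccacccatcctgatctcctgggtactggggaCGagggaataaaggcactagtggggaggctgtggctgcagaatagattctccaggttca
S100a9: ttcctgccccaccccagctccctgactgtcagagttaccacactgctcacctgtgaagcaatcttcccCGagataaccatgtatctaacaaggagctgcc

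These stretches held 8 CpG for S100a11, 7 for Anxa5, 4 each for Anxa2 and Anxa4 and 1 each for S100a5 and S100a9. Another RefSeq start of Anxa4 is not shown, and the 250 bases before it held 2 CpG, against 13 before the start shown. RefSeq promoter entries were matched for 23 of the 29 members, in 30 windows of 250 bases before a start, since some genes have several starts. The windows are therefore not all separate promoters. Those of S100a1 and S100a13 overlap in part, as do those of Anxa7. Several of the 9 windows of members at 0 in every library were of S100a3. Windows of the 11 matched members with a mean of at least 10 TPM held 1 to 17 CpG (median 8.5), those of 6 members with lower means 1 to 30 (median 3), those of 6 members at 0 in every library held 0 to 5 (median 2), and the median over 32841 windows of all genes was 6. The AP-1 motif TGANTCA, searched on both strands, lay in windows of S100a11, Anxa2, S100a16 and Anxa10, that is in 13.3% of the members' windows against 6.75% of all windows. The TATA box TATAAA lay in 20% of the members' windows and 12.4% of all, in windows of Anxa1, Anxa2, Anxa10, S100a3, S100a4 and S100a8. The GC box GGGCGG lay in 26.7% and 32.7%, the CCAAT box in 16.7% and 33.9%, and the octamer ATGCAAAT in 0% and 1.60%. The motifs were searched without regard to overlap with each other, and a match describes letters only.

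Of the S100 genes, 7 of 17 were above 0 in every library, and of the annexin genes 6 of 12 were, against 47.2% of all genes in the table. Members at 0 in every library numbered 7 of 29, all of them S100 genes, against 32.9% of all genes. The share of members detected throughout was thus near that of other genes. A mean of at least 100 TPM was reached by 6 of 29, against 4.5% of all genes, while 13 of 29 had a mean of at least 10 TPM, against 29.8%, and the same 6 had a mean of at least 300 TPM, against 1.61%. Those 6 were Anxa4, S100a11, Anxa2, S100a10, S100a1 and Anxa5.

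**Figure D2:**
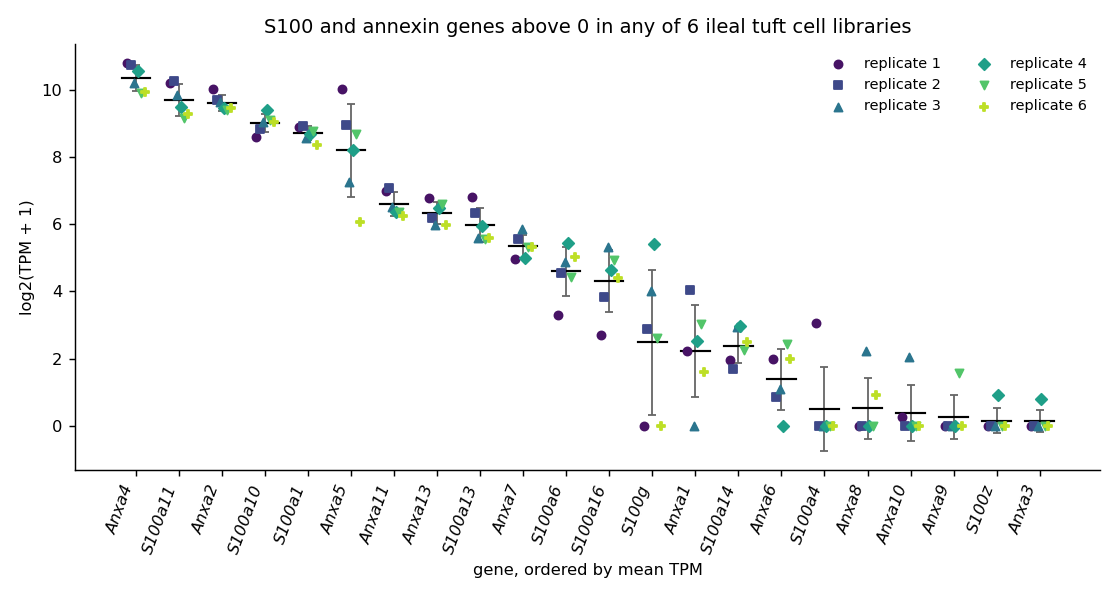
Levels of the 22 members above 0 in any library, in log2(TPM + 1) (y axis), ordered by mean TPM (x axis), with 1 symbol per library, a line for the mean and error bars for the SD (n = 6). The levels run from Anxa4 at 960.6 to 1764 TPM down to genes listed above 0 in 1 library, and Anxa5 and S100g have the widest spread among genes of at least 10 TPM.

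The annexin genes summed to 2777 ± 809 TPM and the S100 genes to 1943 ± 281 TPM (SD, n = 6). The annexin TPM exceeded the S100 TPM in 6 of 6 libraries, by 1.19 to 1.90 times (median 1.36). The longest annotated transcript is 511 bases for S100a11 and 2623 for Anxa4. What length did to these values beyond the correction in TPM was not tested. A bias between genes that repeats in every library would also pass the sign-flip test used here and for the partners below. On the log2(TPM + 1) scale the S100 sum was lower by 0.48 ± 0.24 (SD, n = 6; two-sided sign-flip test, exact p = 0.03125, the same after adjustment), where the p is the smallest that 6 libraries allow.

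Among the annexins, Anxa4 was the most abundant, at 1764, 1714, 1170, 1499, 960.6 and 983.6 TPM in replicates 1 to 6. It was highest in replicates 1 and 2, lowest in 5 and 6, and held 42.4% to 55.4% of the annexin TPM. Annexin A4 is a membrane-binding protein of secretory and ciliated epithelia. Anxa2, whose product joins membranes to actin, was at 1040, 822.7, 797.1, 702.5, 670.5 and 695.7 TPM. Every value of replicates 1 to 3 lay above every value of replicates 4 to 6, and the coefficient of variation (CV, the SD as a percentage of the mean) of 17.4% was the smallest of the annexins with at least 10 TPM.

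Anxa5, the gene of the annexin known as a stain for exposed phosphatidylserine, was at 1045, 497.9, 151.9, 297.6, 406.3 and 66.2 TPM. Replicate 1 was highest and replicate 6 lowest, a 15.8-fold range where Anxa4 and Anxa2 ranged 1.84-fold and 1.55-fold. Anxa5 therefore matched Anxa2 in replicate 1, at 1.00 times its TPM, and lay at 0.0951 times its TPM in replicate 6. The sum of the enterocyte genes was also highest in replicate 1 (16765 TPM), where Fabp1 alone gave 12794 TPM. Their median log2(TPM + 1) was highest in replicate 4, at 7.26 against 7.06 in replicate 1. The goblet cell genes were highest in replicate 6 (5118 TPM). The part of these cells in the spread of Anxa5 was not tested.

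The other annexins detected in every library were of middle level. Anxa11, which binds RNA granules and S100A6, was at 127.0, 134.7, 90.9, 80.8, 81.0 and 74.4 TPM, with replicates 1 to 3 above 4 to 6. Anxa13, the annexin of the intestinal and renal brush border, ran from 61.8 to 109.4 TPM (median 80.3), and Anxa7, an annexin of secretory granule fusion, from 30.4 to 57.3 TPM (median 38.7). Exons of Anxa11, Anxa2 and Anxa4 overlap annotated RNAs of the opposite strand over 113, 98 and 75 bases, and the strand setting of the counting was not given in the sources used here. Reads of these overlaps cannot be told apart.

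Anxa1, the glucocorticoid-induced annexin that restrains leukocyte entry, was at 3.65, 15.4, 0, 4.78, 7.20 and 2.03 TPM. Anxa6, the annexin with a doubled core, was at 2.95, 0.82, 1.12, 0, 4.46 and 2.93 TPM. The last 4 were seen in few libraries. Anxa8 reached 3.69 TPM (replicate 3) and 0.87 TPM (replicate 6). Anxa10, an annexin of the stomach, reached 3.14 TPM (replicate 3) and 0.19 TPM (replicate 1). Anxa9 was at 1.97 TPM in replicate 5 and Anxa3 at 0.75 TPM in replicate 4. All 12 annexin genes were thus listed above 0 in at least 1 library.

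Among the S100 genes, S100a11 was the most abundant, at 1170, 1237, 923.8, 717.3, 571.9 and 614.2 TPM, with every value of replicates 1 to 3 above those of 4 to 6. It held 34.4% to 53.9% of the S100 TPM. S100a10, the member whose EF-hands no longer bind calcium and which is held in its active form, was at 385.7, 455.4, 530.3, 676.8, 551.1 and 529.3 TPM, lowest in replicates 1 and 2 and highest in 4. The ratio of S100a11 to S100a10 thus fell between 1.04 and 3.03. S100a1, best known as a regulator of calcium cycling in heart muscle, was at 477.9, 483.6, 378.6, 412.4, 434.7 and 330.0 TPM. Its CV of 14.1% was the smallest of all members with at least 10 TPM. Of all 6986 genes averaging 10 TPM or more, not matched to S100a1 in level, 4.55% varied less.

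S100a13, whose product is known for the release of growth factors that lack a signal peptide, was at 110.7, 79.8, 46.9, 60.7, 45.9 and 46.8 TPM. Although S100a13 starts beside S100a1, its level per length was lower in 6 of 6 libraries. S100a1 exceeded it 4.32-fold to 9.47-fold (median 6.92), least in replicate 1, where S100a13 was highest.

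The lower S100 genes varied more. S100a6 (calcyclin), a gene of proliferating cells and fibroblasts, was at 8.93, 22.5, 28.3, 42.6, 20.4 and 31.6 TPM, and S100a16 at 5.57, 13.1, 39.0, 23.8, 29.6 and 20.1 TPM. Both were lowest in replicate 1. The goblet cell genes were lowest in replicates 1 and 2 as well, at 1155 and 1053 TPM against 2324 to 5118 TPM in the others, and their part was not tested. S100a14 was at 2.23 to 6.89 TPM (median 4.21). S100a4 (metastasin), a gene of fibroblasts and migrating leukocytes, was at 7.38 TPM in replicate 1 and at 0 elsewhere, and markers of its usual sources were split. All 6 stromal markers were at 0 in replicate 1, and Dcn, the most abundant of them, was above 0 in replicate 5 alone. Leukocyte markers were mixed. In replicate 1 the 7 neutrophil genes summed to 34.8 TPM (13.95 to 22.2 TPM in the others). Of that sum Ltf, which mucosal epithelia also make, gave 32.5 TPM. The 6 macrophage genes summed to 20.2 TPM there (3.25 to 18.7 TPM). Ptprc, a gene of the T cell list, reached 170.9 TPM (74.2 to 156.3 TPM). The 8 T cell genes together summed to 205.1 TPM, inside the range of the other libraries (124.5 to 303.4 TPM). Most of that sum was Ptprc. Gzma was at 10.4 TPM there (29.05 to 157.7 TPM in the others) and Cd3g at 0 TPM (2.51 to 13.1 TPM). Gzmb, Itgae, Cd3e, Cd8a and Cd3d lay inside their range in the others. The neutrophil gene Retnlg was at 1.67 TPM in replicate 1 and at 0 in the others, as S100a4 was. Csf3r, also of the neutrophil list, was at 0.62 TPM in replicate 1 (0.45 to 1.96 TPM in the others). The part of these cells in the level of S100a4 was not tested. S100z was at 0.87 TPM in replicate 4 only.

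S100g encodes calbindin-D9k, the vitamin D-induced protein that carries calcium across enterocytes. It was at 0, 6.33, 15.2, 41.2, 5.18 and 0 TPM, with replicate 4 far above the others. The vitamin D receptor gene Vdr was at 78.0 ± 16.0 TPM and the calcium pump gene Atp2b1 at 31.5 ± 5.03 TPM (SD, n = 6), while Cyp24a1 and Cyp27b1, the enzymes that inactivate and activate vitamin D, and the apical calcium channel genes Trpv5 and Trpv6 were listed at 0 in every library.

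The genes of the neutrophil protein calprotectin, S100a8 and S100a9, were listed at 0 in all 6 libraries. Of 7 neutrophil markers in the table, Mpo, Elane, Ngp and Camp were also at 0 in every library, Csf3r did not exceed 1.96 TPM, Retnlg was above 0 in replicate 1 alone, and Ltf, which mucosal epithelia also make, averaged 18.7 ± 7.47 TPM (SD, n = 6). S100b, a marker of glial cells, the skin-associated S100a2, S100a3 and S100a7a, and S100a5 were at 0 as well.

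S100a10, S100a11 and S100a6 were next each compared with the gene of a known annexin partner in the same library. Anxa2 exceeded S100a10 in 6 of 6 libraries, by 1.04 to 2.70 times (median 1.41), so the partners were nearly level in replicate 4 and farthest apart in replicate 1. On the log2(TPM + 1) scale S100a10 was lower by 0.60 ± 0.49 (SD, n = 6; exact sign-flip permutation test, adjusted p = 0.03125 over 4 comparisons). The difference was -0.96 ± 0.43 within replicates 1 to 3 and -0.24 ± 0.17 within replicates 4 to 6 (SD, n = 3), sets of libraries that differ in Gm20594 (1.56% to 2.13% and 5.18% to 5.64% of TPM). The difference between the sets was not tested.

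S100a11 and Anxa1 were far from level. S100a11 exceeded Anxa1 in 6 of 6 libraries, by 7.47 ± 1.38 on the log2(TPM + 1) scale (SD, n = 6; exact sign-flip permutation test, adjusted p = 0.03125). In the 5 libraries with Anxa1 above 0, the ratio ran from 79.4 to 321 (median 150). As Anxa1 was near or at 0, the size depends on the pseudocount, and the difference was 8.24 with a pseudocount of 0.1 TPM and 8.82 with 0.01 TPM. For S100a6 and Anxa11 the order was the opposite, with the annexin higher in 6 of 6 libraries, by 1.90 to 14.2 times. S100a6 was lower by 1.99 ± 1.01 on the log2(TPM + 1) scale (SD, n = 6; exact sign-flip permutation test, adjusted p = 0.03125).

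**Figure D3:**
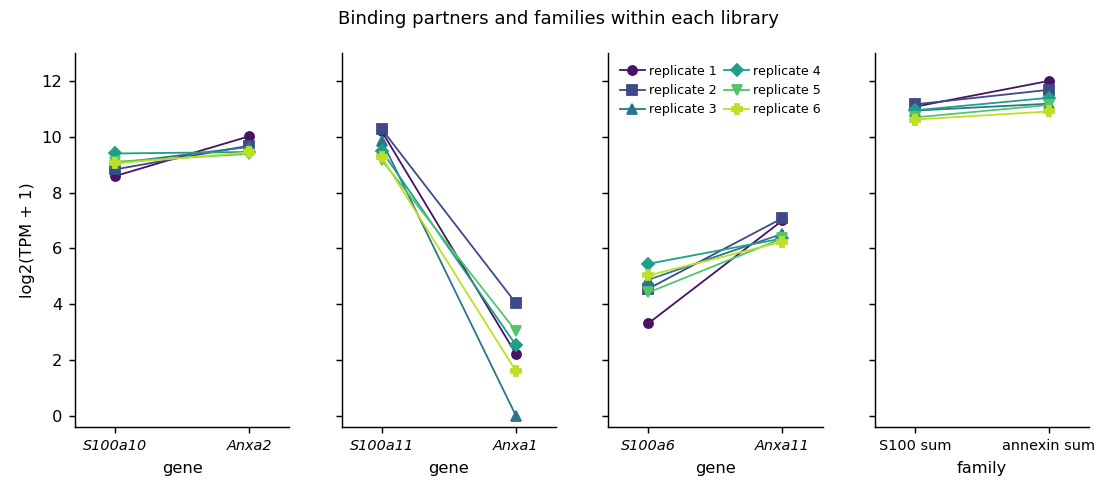
Levels of 3 pairs of binding partners and of the summed families within each library, in log2(TPM + 1) (y axis), with 1 line per library. Every line rises from S100a10 to Anxa2, from S100a6 to Anxa11 and from the S100 sum to the annexin sum, and falls from S100a11 to Anxa1.

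Partners did not rise and fall together detectably. Across the 6 libraries, S100a10 and Anxa2 were opposed (Pearson r = -0.85, exact permutation p = 0.0389, adjusted p = 0.115 over 5 relations; Spearman rho = -0.71, exact permutation p = 0.136, adjusted p = 0.292), which fails adjustment. With replicates 1 and 5 left out, which had the most distant values of Anxa2, r was -0.71, and it was -0.93 within replicates 1 to 3 and 0.54 within replicates 4 to 6. S100a6 and Anxa11 gave r = -0.67 (exact permutation p = 0.156, adjusted p = 0.259; rho = -0.66, p = 0.175, adjusted p = 0.292), falling to -0.15 without replicates 1 and 2. It was -0.55 and -0.12 within the same sets of libraries. S100a11 and Anxa1 gave r = 0.14 (exact permutation p = 0.790, adjusted p = 0.790; rho = 0.14, p = 0.803, adjusted p = 0.844), and -0.18 without replicates 2 and 3. Within the sets it was 0.96 and -0.14.

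Anxa13 and S100g, whose products are known from absorptive cells, were set against the median of the 12 enterocyte genes. Anxa13 was positively related to that list (r = 0.88, exact permutation p = 0.0458, adjusted p = 0.115; rho = 0.83, exact permutation p = 0.0583, adjusted p = 0.292), a relation that fails adjustment. It was 0.98 without replicates 3 and 4, and 0.99 and 0.89 within replicates 1 to 3 and 4 to 6. For S100g no relation was detected (r = 0.16, exact permutation p = 0.700, adjusted p = 0.790; rho = 0.12, p = 0.844, adjusted p = 0.844). Its r was 0.03 without replicates 3 and 4, and -0.99 and 0.98 within the sets.

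Spread between libraries differed within the families. The median CV of the 13 members with at least 10 TPM was 26.6%, against 31.0% for all 6986 genes averaging 10 TPM or more. The members were not matched to these genes by mean level. The 6 annexins had a median of 25.9% with Anxa5 at 84.9%, a CV above that of 98.4% of these genes. The 7 S100 genes had a median of 39.7%, from S100a1 at 14.1% and S100a10 at 18.8% to S100a16 at 54.2% and S100g at 138.4%. By Dixon's ratio, which sets the gap of the most distant library against the whole range, 1 library stood apart for 7 of the 22 members above 0 in any library, against 20.7% of all such genes, and for 1 of 13 members of at least 10 TPM, S100g, against 7.01%. S100g averaged 11.3 TPM and reached the floor of 10 TPM through replicate 4, the library that stood apart, since without it the mean was 5.35 TPM.

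**Figure D4:**
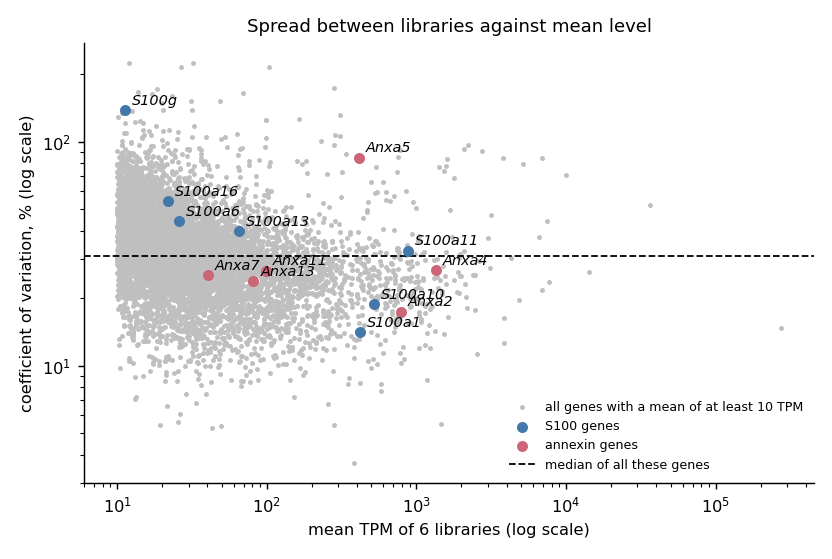
Coefficient of variation over 6 libraries (y axis, %, log scale) against mean TPM (x axis, log scale) for the 6986 genes averaging 10 TPM or more (grey), with S100 genes in blue, annexins in red and the median of all these genes, 31.0%, as a dashed line. S100a1, Anxa2 and S100a10 lie below the line and Anxa5 and S100g far above it.

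In the order of mean log2 level, several neighbours did not differ beyond their spread, namely S100a11 and Anxa2 (0.10 ± 0.30, SD of the within-library difference, n = 6), S100a10 and S100a1 (0.30 ± 0.42), S100a1 and Anxa5 (0.50 ± 1.18), Anxa11 and Anxa13 (0.26 ± 0.42), Anxa13 and S100a13 (0.37 ± 0.42), S100a13 and Anxa7 (0.63 ± 0.73) and S100a6 and S100a16 (0.30 ± 0.61). Anxa4 stood above S100a11 by 0.65 ± 0.25, in 6 of 6 libraries.

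The tuft cell markers themselves varied between libraries, with a median on the log2(TPM + 1) scale of 7.82 to 8.42, highest in replicates 1 and 2. The 13 members were therefore set against this median, a comparison chosen after the values were seen. Of 13 relations, 8 were positive and 5 negative, and 4 passed 0.05 by Pearson's r after adjustment over 13, of which S100a13 also passed by Spearman's rho. S100a13 (r = 0.95, exact permutation p = 0.00139, adjusted p = 0.0181; rho = 1.00, exact permutation p = 0.00278, adjusted p = 0.0181), Anxa2 (r = 0.88, exact permutation p = 0.00417, adjusted p = 0.0271; rho = 0.94, p = 0.0167, adjusted p = 0.0722) and S100a11 (r = 0.90, exact permutation p = 0.00833, adjusted p = 0.0361; rho = 0.89, p = 0.0333, adjusted p = 0.108) rose with the markers. S100a16 fell as they rose (r = -0.89, exact permutation p = 0.0153, adjusted p = 0.0497; rho = -0.71, p = 0.136, adjusted p = 0.325).

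Anxa4, the most abundant member, passed by rho and not by r (rho = 1.00, exact permutation p = 0.00278, adjusted p = 0.0181; r = 0.86, exact permutation p = 0.0292, adjusted p = 0.0722). Anxa11 (r = 0.94, exact permutation p = 0.0389, adjusted p = 0.0722; rho = 0.66, p = 0.175, adjusted p = 0.325) and S100a10 (r = -0.82, exact permutation p = 0.0333, adjusted p = 0.0722; rho = -0.60, p = 0.242, adjusted p = 0.349) passed by neither.

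These relations rest largely on replicates 1 and 2, the libraries with the highest values of the list. Without them r was 0.47 for S100a13, 0.60 for Anxa2, 0.67 for S100a11, 0.62 for Anxa4, 0.14 for Anxa11, 0.25 for S100a10 and -0.13 for S100a16. Within replicates 1 to 3 and 4 to 6, r was 0.97 and 0.65 for S100a13, 0.71 and 1.00 for Anxa2, 0.94 and 0.82 for S100a11, 1.00 and 0.63 for Anxa4, 0.96 and -0.41 for Anxa11, -0.92 and 0.47 for S100a10, and -0.96 and -0.85 for S100a16. When TPM was rescaled without Rn45s and Gm20594, 3 of 13 passed by r, and S100a11 no longer did (r = 0.70, exact permutation test, adjusted p = 0.245).

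**Figure D5:**
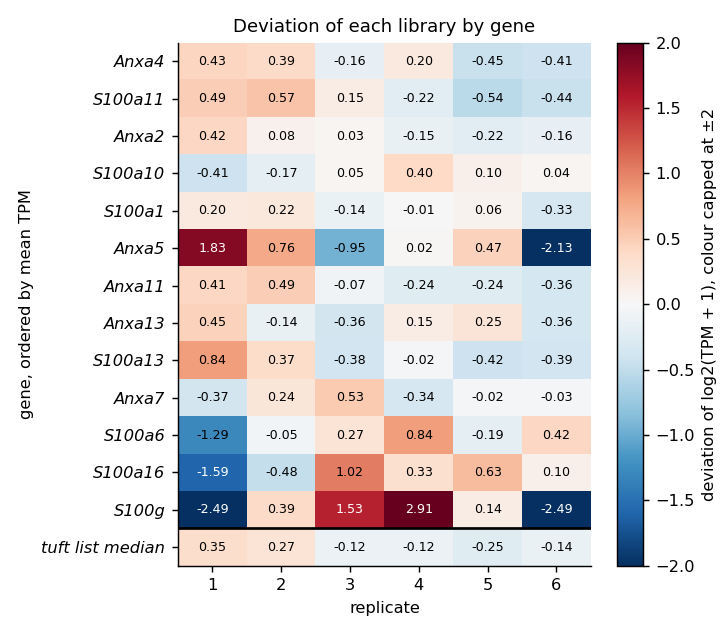
Deviation of each library (x axis) from the mean of 6 libraries in log2(TPM + 1) for the 13 members averaging 10 TPM or more (y axis) and, below the line, for the median of the tuft cell list. In replicate 1, 8 members and the tuft cell list lie above their mean while S100a10, Anxa7, S100a6, S100a16 and S100g lie below it, and the colours of Anxa5 and S100g are capped at ±2 while the printed values are not.

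Genes that act with these proteins were read from lists set by name. Of 15 genes of binding partners, 10 had a mean of at least 10 TPM, against 29.8% of all genes. Another 3 were at 0 in every library, namely Dysf, Trpv5 and Trpv6, against 32.9% of all genes. The most abundant were Tpm1, a tropomyosin, at 267.1 ± 57.4 TPM, Sri (sorcin), a calcium-binding partner of annexin A7, at 199.6 ± 33.2 TPM, Pdcd6 (ALG-2), which binds annexins A7 and A11, at 104.4 ± 14.0 TPM and the calpain subunit Capns1 at 79.6 ± 28.0 TPM (SD, n = 6 each). Of 12 other small calcium-binding proteins, 8 reached 10 TPM, against 29.8% of all genes. Among them were Calm2 at 887.3 ± 238 TPM, Calml4, a calmodulin-like light chain of the brush border, at 784.0 ± 80.4 TPM and Cib1 at 529.0 ± 106 TPM (SD, n = 6 each). Calb1, Calb2 and Pvalb, the calbindins and parvalbumin of neurons and muscle, were at 0.

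Receptors for released S100 proteins and annexin A1 were low except 1. Bsg (basigin), a receptor of calprotectin with many other roles, was at 870.7 ± 253 TPM (SD, n = 6), while Ager, the gene of RAGE, did not exceed 3.40 TPM, Tlr4 did not exceed 0.40 TPM, and the formyl peptide receptor genes Fpr1 and Fpr2 were at 0 in every library. The plasminogen genes that S100A10 is known to serve at the cell surface were sparse, with the 6 listed genes summing to 1.09 to 12.9 TPM per library and none reaching a mean of 10 TPM.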

How the data were processed

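RNA from sorted ileal tuft cells was prepared by a modified SMART-Seq2 protocol, although the labels name further preparations as well. The authors aligned paired-end reads with Bowtie to the UCSC mm10 transcriptome, with limits on mismatches and on alternative alignments, and RSEM estimates were deposited as TPM per gene for each of the 6 libraries. RSEM divides reads shared by near-identical transcripts by estimated shares. Columns were matched to replicates by number.

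Values were used as deposited, on the log2(TPM + 1) scale for tests. There are no groups, so genes were compared within libraries in 4 exact permutation tests that flip the signs of the differences (two-sided, 64 assignments), and relations across libraries by exact permutation over 720 pairings (5 planned relations, and 13 with the tuft cell list added after the data were seen), with Benjamini-Hochberg adjustment within each family. Alternatives were other pseudocounts, a low-value filter, 2 rescalings, the Mann-Whitney test that the study names, centring within sets and leaving out each library. Outlying libraries were screened by Dixon's ratio. The rescaling factors and Dixon's ratio were tested on simulated data, and the exact tests on fixed inputs with a known answer. The rule for named genes took every member, up to 4 genes of at least 10 TPM per pathway list and the 2 most abundant genes per marker list, of which only some are printed, and 1 gene of a pathway list is not reported here; genes named beyond it were chosen after their values were seen. The members and lists were chosen with earlier results of these data known. The lists of stem, enteroendocrine, macrophage, T and endothelial cell genes summed to 335.9 to 812.7, 379.2 to 536.5, 3.25 to 20.2, 124.5 to 303.4 and 0 to 0.37 TPM. The software was Python 3.11.15 with scipy 1.17.1, pandas 2.3.3, numpy 2.4.6 and, for plots, matplotlib 3.10.9, with positions from GENCODE M21 and promoter sequences from RefSeq GRCm38.p6.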

Additional observations from a re-analysis of the deposited data

Results flagged for a closer look

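Of 28 measures screened, 7 had 1 library farther from the nearest other than Dixon's 95% critical value for 6 libraries allows, where chance gives about 1 in 20. Among all genes above 0 in any library, 20.7% did so, since a gene listed in 1 library alone has a ratio of 1 by construction, and among genes of at least 10 TPM 7.01% did. S100a4 (replicate 1), Anxa9 (replicate 5), S100z and Anxa3 (both replicate 4) were such genes, each with a ratio of 1. Anxa10 was at 3.14 TPM in replicate 3 and at most 0.19 TPM elsewhere (ratio 0.939), and Anxa8 was at 3.69 TPM in replicate 3 and at most 0.87 TPM elsewhere (ratio 0.764). S100g was at 41.2 TPM in replicate 4 and at most 15.2 TPM elsewhere (ratio 0.631), and it was the 1 such member averaging 10 TPM or more. The Paneth cell genes were also highest in replicate 4, at 26976 TPM summed. The median log2(TPM + 1) of the enterocyte genes was highest there too, at 7.26. The part of these cells in the level of S100g was not tested.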

How the results depend on the processing

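Every comparison of partners and of the summed families kept its direction under each pseudocount, filter, rescaling and test tried, and passed 0.05 except with 5 libraries, where the smallest possible sign-flip p is 0.0625. The size of S100a11 minus Anxa1 depended on the pseudocount, at 7.47, 8.24 and 8.82 with 1, 0.1 and 0.01 TPM. A scaling acts alike on both genes of a library and cannot turn their order. Without each replicate in turn, the difference ran from -0.71 to -0.43 for S100a10 minus Anxa2, from 6.99 to 7.74 for S100a11 minus Anxa1, from -2.20 to -1.65 for S100a6 minus Anxa11 and from -0.53 to -0.39 for the summed families. Of the relations, S100a6 with Anxa11 passed 0.05 under median-of-ratios rescaling (r = -0.83). Without replicate 4, S100a10 with Anxa2 and Anxa13 with the enterocyte list passed 0.05, and the sign of r turned for S100a11 with Anxa1 without replicate 2 and for S100g without replicates 4 or 6. With each replicate left out, the r of S100a10 with Anxa2 lay between -0.94 and -0.62, that of S100a11 with Anxa1 between -0.38 and 0.45, that of S100g with the enterocyte list between -0.42 and 0.53 and that of Anxa13 with that list between 0.83 and 0.97. The relation of S100a11 with the tuft cell list lost its call without Rn45s and Gm20594 (r = 0.70, adjusted p = 0.245 by exact permutation). The sums moved with the removal of Rn45s and Gm20594, which raises every value, to 2810 TPM for S100 genes and 4001 TPM for annexins, and the means of 11 of 22 members moved beyond 1 SD with it, while 0 did under median-of-ratios rescaling. Leaving out 1 of 6 libraries cannot move a mean by 1 SD, so that measure says nothing of stability there. Means of sparse members rested on 1 library, and changed from 11.3 to 5.35 TPM for S100g without replicate 4, from 5.51 to 3.53 TPM for Anxa1 without replicate 2, and without replicate 3 from 0.56 to 0.038 TPM for Anxa10 and from 0.76 to 0.17 TPM for Anxa8. S100a4, Anxa9, S100z and Anxa3 averaged 0 without their 1 library. The cause of the other changes was not tested. No paired analysis was possible because the libraries form 1 group and their numbers pair no samples across groups, although genes were compared within each library. TPM keeps no depth, so genes listed at 0 are not shown to be absent.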
